A study of Mus musculus with 14 samples.

Results

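Hippocampal RNA of vehicle-dosed Kmt2d mutant mice was set against that of wild types given the drug TAK-418, using 8 of the 14 libraries of the series. The libraries were chosen by their labels alone. The 3 vehicle mutants were KMT2D+/bGeo heterozygotes gavaged with methylcellulose vehicle, and the 5 treated wild types were KMT2D+/+ animals gavaged with TAK-418 at 1 mg/kg/day. All were C57BL6 mice of 30 days, dosed for 2 weeks from 2 weeks of age. The remaining libraries, from 3 vehicle wild types (KMT2D+/+, Veh) and 3 treated mutants (KMT2D+/bGeo, TAK-418), are given beside some results to show levels. The groups compared differ in both genotype and drug, so the effects of the allele and of the drug cannot be told apart within this pair.

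KMT2D is one of the enzymes that place methyl groups on lysine 4 of histone H3 (H3K4), a mark of active enhancers and promoters, and loss of one copy of the human gene causes Kabuki syndrome. The bGeo allele is a reporter insertion in the gene. LSD1, encoded by Kdm1a, removes methyl groups from the same lysine as part of complexes with CoREST proteins and histone deacetylases, and TAK-418 inhibits LSD1. The hippocampal dentate gyrus goes on adding granule neurons after birth, and the choroid plexus, an epithelium that secretes cerebrospinal fluid, lies beside the hippocampus in the ventricle.

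Each library is a set of transcripts assembled from its own reads, with an abundance for each transcript. These were summed over each annotated gene and scaled between libraries, giving a scaled abundance on a scale like FPKM. A gene with no assembled transcript in a library is listed at 0, and such a 0 may be a missed transcript, since Aldoc, an abundant astrocyte enzyme, has a 0 in treated wild type 1. A difference is the mean of log2(scaled abundance + 0.9) in vehicle mutants minus that in treated wild types, so it understates the change of low genes. Steps between low values put the depth at 35100000 to 60000000 reads or fragments in 13 libraries and at 167600000 in treated wild type 1, which also had the most assembled transcripts (48428, against 33819 to 41228 in the others). Transcripts of 1 exon numbered 6068, 6867 and 7576 in vehicle mutants and 6007, 2217, 5537, 3741 and 2315 in treated wild types. Every vehicle mutant thus had more of them than every treated wild type. Vehicle wild types had 7177, 7140 and 3862, and treated mutants 7580, 6346 and 6895. A fit to multi-exon transcripts only is given in the closing section, and the effect on single genes was not tested further. In vehicle mutant 1, 40.8% of the abundance lay outside annotated genes, against 33.0% in treated mutant 2 and 4.08% to 8.0% in the other libraries. The labels do not say which animals were littermates, and replicate numbers follow accession order only. Replicates were no more alike than libraries of different groups. Across genes, the median Pearson correlation between 2 libraries was 0.959 within vehicle mutants, 0.964 within treated wild types and 0.963 between them.

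No gene separated the groups past the adjusted threshold. Of 16575 genes tested with limma, 0 (0%) passed a Benjamini-Hochberg adjusted p of 0.05, and the smallest adjusted p was 0.189. At an unadjusted p of 0.05, 675 genes were higher in vehicle mutants (4.07%) and 856 were lower (5.16%). The groups did not overlap, every vehicle mutant lying on one side of every treated wild type, for 442 genes higher (2.67%) and 593 lower (3.58%). These shares over all genes tested are the background for the counts given for gene lists below. The share of higher genes among those that did not overlap was 42.7%, but 12.3% with no scaling between libraries and 18.8% with libraries scaled to the same sum, which moved the median of all genes from 0.002 to -0.093 and -0.054. Fits with 1 library left out made between 0 and 8 calls, and a fit to these 8 libraries alone made 7, among them Nfia.

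Kmt2d, the mutated gene, read 10.6, 10.7 and 14.4 in the vehicle mutants and 13.8, 18, 12.5, 14.4 and 17.4 in the treated wild types. The groups overlapped, with vehicle mutant 3 among the wild types. The log2 difference was -0.33 ± 0.15 (SE), with an exact permutation p of 0.107 (two-sided, 56 assignments, smallest possible p 0.0179) and 0.143 after adjustment over the 2 genes so tested. Transcripts with the 55 exons of the full gene were assembled in the mutant libraries too, so these values do not separate the alleles. The vehicle wild types held 14 ± 0.233 (SD, n = 3) and the treated mutants 12.4 ± 2.73 (SD, n = 3). Kdm1a, the drug's target, read 29.9, 34.9 and 33.3 in vehicle mutants against 33.2 to 35.8 in treated wild types, a log2 difference of -0.081 ± 0.047 (SE) with an exact permutation p of 0.143. The authors' deposited table of this pair called neither gene. It gave Kmt2d 2.43 FPKM in vehicle mutants and 2.45 in treated wild types (q = 0.999). A locus shared by Kmt2d and Prkag1 stood at 33.0 and 41.3 there (q = 0.926), and Kdm1a at 26.6 and 27.6 (q = 0.983).

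Members of the H3K4 methyltransferase complexes lay slightly lower in 2 of the 3 vehicle mutants. Taken by library, as the median deviation of the list's genes from their means, they stood at -0.102, -0.211 and 0.087 in vehicle mutants. Treated wild types stood at -0.011 to 0.09, so vehicle mutant 3 lay among them. Treated mutants stood at -0.043, -0.077 and -0.108 and vehicle wild types at 0.058, -0.092 and -0.002, so levels near that of vehicle mutant 1 occurred in both. Protein-coding genes in the longest of 5 bins of transcript length stood at -0.052, -0.045 and 0.04 in the same vehicle mutants. With the trend with transcript length removed, Kmt2d differed by -0.30. The part of transcript length in the list's difference was not tested. Of 14 list members tested, Kmt2d included, 12 were below treated wild types with a list median of -0.18, beside 0.002 over all genes. Of these, 2 passed an unadjusted p of 0.05 (Kmt2d and Setd1b, both lower), beside 5.16% of all genes. Setd1b, a catalytic subunit of a SET1 complex, held 6.0 ± 0.87 (SD, n = 3) against 7.12 ± 0.724 (SD, n = 5). Dpy30, the most abundant of the list and a core subunit shared by these complexes, differed by -0.04. Of the LSD1 complex, 8 of 12 were lower with a median of -0.07, which was -0.025 without vehicle mutant 1, -0.023 with the trend with transcript length removed and -0.18 with no scaling. Rcor2, a CoREST scaffold, read 7.08, 7.85 and 9.09 against 8.97 to 10.6 (log2 difference -0.26, unadjusted p 0.0124, limma adjusted p 0.422), and Hdac2, the most abundant member, differed by 0.10. Among 6 H3K4 demethylases the median was -0.018, and Kdm5b alone passed an unadjusted p of 0.05, at -0.13. No member of these 3 lists had groups that did not overlap.

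Adgrg1, an adhesion receptor, gave the smallest p among protein-coding genes listed in all 8 libraries. It read 29.0, 28.3 and 28.2 in vehicle mutants and 34.2, 33.8, 33.8, 32.3 and 32.6 in treated wild types. Vehicle wild types (28.2 to 30.2) and treated mutants (29.0 to 30.2) lay at the level of the vehicle mutants, so treated wild types alone were high. Its log2 difference of -0.22 ± 0.034 (SE) had a limma adjusted p of 0.189.

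Pnck, a calmodulin-dependent kinase gene at X:73655994-73660117 (GRCm38), was lower in both vehicle groups than in both treated groups. It read 45.7, 51.4 and 47.7 in vehicle mutants and 65.7, 58.7, 66.5, 57.0 and 64.6 in treated wild types, a log2 difference of -0.37 ± 0.061 (SE, limma adjusted p 0.189). The vehicle wild types read 52.5, 47.8 and 49.0 and the treated mutants 64.4, 66.6 and 61.4. Every vehicle library lay below every treated library. Pnck was named for its small p in this contrast, and the share of all genes split in this way is not given here. Whether the drug caused the split was not tested. In the authors' deposited table, Pnck was called lower, at 46.5 FPKM in vehicle mutants and 61.0 in treated wild types (q = 0.00995).

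Igfbp6, which encodes a secreted binding protein for insulin-like growth factors, was almost level among vehicle mutants at 6.22, 5.76 and 5.96. The treated wild types read 11.2, 13.3, 12.1, 7.68 and 13.3, the fourth nearest to the mutants. The log2 difference of -0.83 ± 0.15 (SE) had a limma adjusted p of 0.189. With 1 library left out, the limma adjusted p ranged from 0.0027, without treated wild type 4, to 0.413. Vehicle wild types stood between, at 8.38 ± 0.683 (SD, n = 3), and treated mutants at 10.5 ± 1.37 (SD, n = 3). The authors' deposited table called the gene too, at 3.82 against 7.8 FPKM (q = 0.00995).

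Tdo2, a tryptophan-degrading enzyme expressed in dentate granule cells, read 6.69, 5.53 and 6.28 against 8.44 to 9.66, with no overlap (log2 difference -0.48). Both other groups lay between them, at 7.6 ± 0.855 and 7.51 ± 0.887 (SD, n = 3 each) for vehicle wild types and treated mutants. Gng7, a G protein subunit, read 79.1, 79.0 and 80.8 against 89.3 to 95.7. Vehicle wild types (82.7 to 86.5) and treated mutants (78.1 to 87.3) also lay below all treated wild types for Gng7. Arhgap33, a GTPase-activating protein, read 30.3, 29.0 and 31.8 against 35.1 to 39.9, and the pseudokinase gene Prag1 read 6.21, 5.35 and 6.57 against 7.86 to 8.72. For Prag1, vehicle wild types (6.61 to 7.22) and treated mutants (6.63 to 7.39) were below all treated wild types too. Nrsn2, a neuronal vesicle protein, held 28.6 ± 1.27 (SD, n = 3) against 41.9 ± 4.77 (SD, n = 5). For Arhgap33 and Nrsn2, treated mutants overlapped the treated wild types. Tdo2, Gng7, Arhgap33, Prag1 and Nrsn2 all had limma adjusted p of 0.189 to 0.211.

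**Figure D1:**
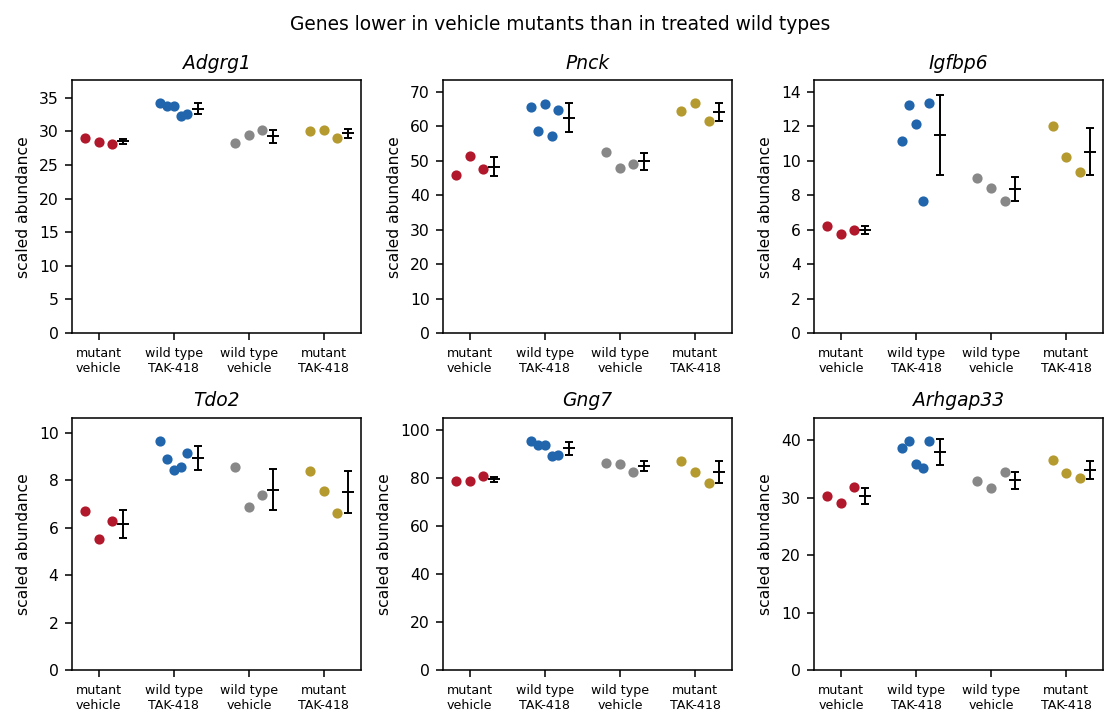
Scaled abundance (y axis, from 0) of 6 genes lower in vehicle mutants, by group. Points are libraries and bars the mean with its SD. Pnck is low in both vehicle groups and high in both treated groups, while Adgrg1 and Gng7 are higher in treated wild types than in all other libraries.

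The remaining genes with the smallest p among those lower were Nfia, Nrxn2, Map2 and Dpysl3. Nfia, a nuclear factor I transcription factor, read 6.95, 8.14 and 8.72 in vehicle mutants and 14.3 to 17.2 in treated wild types, with vehicle wild types at 7.29 to 10.9. Treated mutants read 15.3, 9.62 and 16.3. Dpysl3, a cytoskeletal regulator of growing axons, held 15.7 to 20.03 against 20.5 to 26.9. Vehicle wild types (16.6 to 18.9) and treated mutants (17.9 to 19.8) lay at the level of the vehicle mutants for Dpysl3. Map2, the dendritic microtubule protein, held 155 ± 10.5 against 188 ± 11.6 (SD, n = 3 and 5), and Nrxn2, a presynaptic adhesion protein, 76.8 ± 2.96 against 91.7 ± 2.9. These last 2 depended on how transcripts were combined: taking the highest transcript in place of the sum gave log2 differences of 0.43 for Map2 and 0.16 for Nrxn2, the opposite direction. By the sum, vehicle wild types (80.0 to 82.1) and treated mutants (74.1 to 85.9) also lay below all treated wild types for Nrxn2. For Map2, vehicle wild types overlapped the treated wild types.

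Among genes higher in vehicle mutants, Eno4, an enolase family member, read 2.96, 2.09 and 2.63 against 1.03, 1.12, 1.44, 1.03 and 0.986 in treated wild types. The other groups lay mostly at the treated wild type level, from 0.856 to 1.78. Apobec1, a cytidine deaminase that edits RNA, read 3.91, 2.21 and 2.28 against 1.03 to 1.54, and 0.881 to 1.29 in the other 6 libraries. Both differed by 0.77 on the log2 scale with limma adjusted p of 0.194. Every vehicle mutant was above all 11 other libraries for each of these 2 genes.

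Mvb12a, a subunit of the ESCRT-I sorting complex, read 19.9, 19.3 and 19.3 against 13.1 to 17.6 (log2 difference 0.37). Treated mutants read 17.1 to 18.9 and vehicle wild types 15.2 to 16.4. Cidea, a lipid droplet protein, read 10.3, 8.67 and 10.3 against 6.46 to 7.45 (0.43). Vehicle wild types (7.75 to 9.19) and treated mutants (7.71 to 9.2) lay above all treated wild types for Cidea. Taf4b, a subunit of the TFIID complex, read 3.92, 2.76 and 3.62 against 1.22 to 1.78 (0.81). For Taf4b, treated mutants read 2.66 to 3.01 and vehicle wild types 1.72, 3.6 and 1.69. The DNA helicase gene Ddx11 read 2.46 to 3.12 against 0.668 to 1.99 (0.78). Vehicle wild types were at 2.19 to 3.14 for Ddx11, also above treated wild types. Qtrt2, a subunit of the enzyme that places queuine in transfer RNA, read 10.9 to 12 against 8.51 to 9.9 (0.24).

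Smpdl3b, a membrane phosphodiesterase, and Antxr2, an anthrax toxin receptor, read 1.42 to 2.4 and 2.3 to 2.5 in vehicle mutants against 0.663 to 1.09 and 0.935 to 1.85. Zfp637, a zinc finger gene, differed by 0.23. Trappc6a, a vesicle tethering subunit, stood at 1.57 to 1.84 in all treated wild types and at 1.62 in treated mutant 2, against 3.51 to 6.04 in every other library. Gm48551 read 14.4 to 15.4 in vehicle mutants and 2.78 to 4.21 in 4 treated wild types, but 14.1 in the fourth. Its limma adjusted p was 0.328, and with 1 library left out it ranged from 0.000182, without that library, to 0.564. Adjusted p for the 12 higher genes named ran from 0.194 to 0.328.

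**Figure D2:**
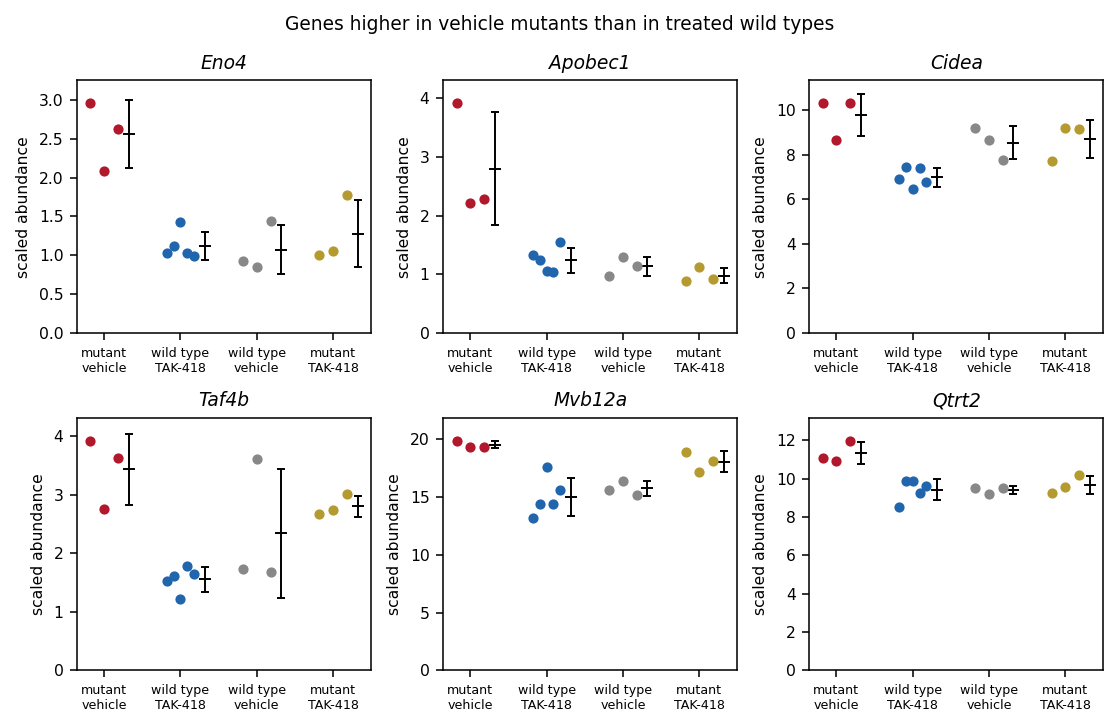
Scaled abundance (y axis, from 0) of 6 genes higher in vehicle mutants, by group. Points are libraries and bars the mean with its SD. Eno4 and Apobec1 are above all other libraries in the 3 vehicle mutants, while Cidea is lowest in treated wild types.

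Choroid plexus genes differed several-fold, and the difference rested on 2 of the 3 vehicle mutants. All 18 of the list were higher in vehicle mutants, with a median log2 difference of 1.45. Of them, 2 passed an unadjusted p of 0.05 (Ttr and Sostdc1), beside 4.07% of all genes. The groups did not overlap for 3 (these and Calml4), beside 2.67% of all genes. Ttr, the thyroid hormone carrier secreted by this epithelium, read 4907, 36.2 and 884 in the vehicle mutants and 33.8, 6.49, 32.2, 16.1 and 19.5 in the treated wild types. Vehicle wild type 3 and treated mutant 1 were also high, at 6369 and 590, while the other 4 libraries of those groups lay at 9.83 to 35.4. Vehicle mutant 1 was the highest and vehicle mutant 3 second of the 8 libraries for 18 of 18 members, and vehicle mutant 2 did not exceed the treated wild types for 15.

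The potassium channel subunit gene Kcne2 read 19.2, 0 and 3.36 in vehicle mutants, 0.111 in treated wild type 1 and 0 in the other 4. The bicarbonate transporter Slc4a5 read 8.07, 0 and 1.53, and the chloride channel family gene Clic6 27.4, 0 and 3.65. Sostdc1, a secreted inhibitor of BMP and WNT signals, read 26.1, 2.75 and 8.26 against 0.867 to 2.48, so the least high mutant exceeded the wild types by little. The summed level of the list was 5932, 119.4 and 1120 in vehicle mutants and 93.5 to 152.0 in treated wild types. It was 7313 in vehicle wild type 3, 744.6 in treated mutant 1 and 92.3 to 113.1 in the rest. Without vehicle mutant 1 the list's median fell to 0.57 and 0 of 18 passed the unadjusted threshold. In bulk tissue, more cells of a type and more RNA per cell cannot be told apart, and how much adjacent choroid plexus each dissection held was not tested.

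**Figure D3:**
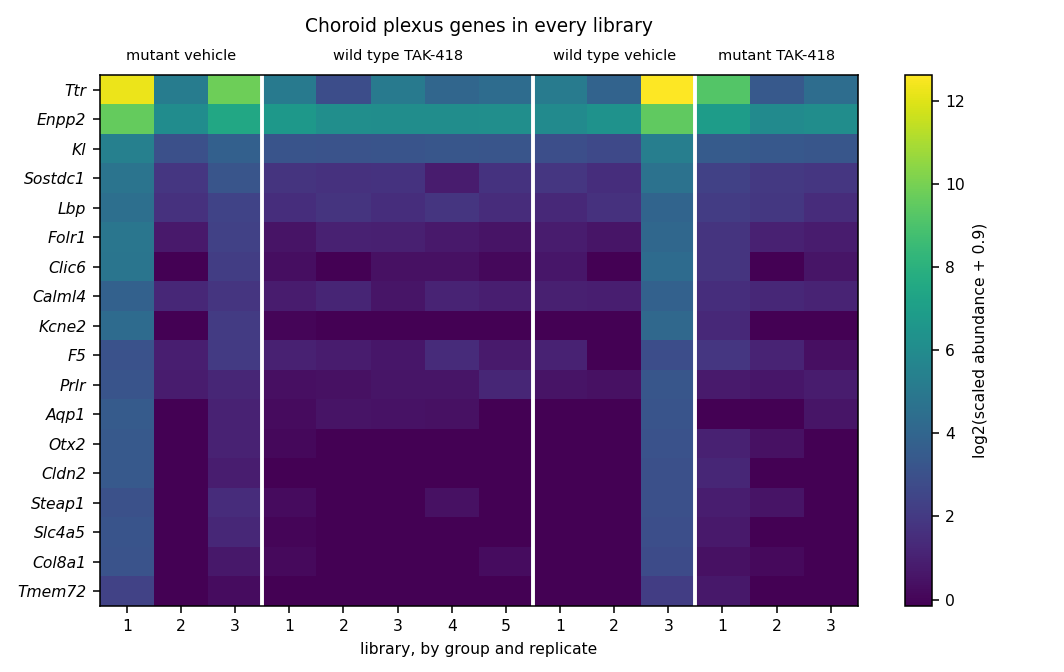
Log2 scaled abundance plus 0.9 (colour) of the 18 choroid plexus genes (rows) in the 14 libraries (columns, by group). Vehicle mutant 1 and vehicle wild type 3 are high throughout, vehicle mutant 3 and treated mutant 1 moderately so.

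The promoters of these genes were searched for TAATCC, a core bound by OTX family factors, on both strands (TAATCC or GGATTA). The windows were RefSeq's, from 250 bases before to 50 after the start (GRCm38.p6), and the search was chosen after the values were seen. Of 12 list genes with an entry, 1 held the letters, close to the share of 8.14% among 27025 gene symbols. Binding was not tested. The gene with the letters was Otx2, a regulator of the choroid plexus, with the match inside the 30-base window chr14:48665303-48665332, minus strand, shown with the motif in capitals.
Otx2: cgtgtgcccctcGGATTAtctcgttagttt

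Markers of neighbouring tissues moved less. Of 12 ependymal and motile cilia genes 9 were higher, with a median of 0.19, which was -0.08 without vehicle mutant 1, and none passed the unadjusted threshold. Foxj1, its most abundant member and the regulator of motile cilia, read 8.9, 3.95 and 5.55 against 4.5 to 6.54. Of 12 meningeal and fibroblast genes 10 were higher (median 0.20). Lum and Igf2 did not overlap, and Mgp passed the unadjusted threshold at 0.63. Igf2, a growth factor of meninges and choroid plexus, read 58.2, 18.9 and 22.4 against 13.3 to 18.6, and Ptgds, the most abundant, overlapped. All 5 blood genes tested were higher (median 0.32), which rested on vehicle mutants 1 and 2. The summed level of these genes was 1001, 891.5 and 473.1 in vehicle mutants and 443.3 to 610.3 in treated wild types, and without vehicle mutant 1 the median was 0.18. Among them were Hba-a2, past the unadjusted threshold at 281, 246 and 117 against 74.9 to 160, and Hba-a1, the most abundant, at 0.31, or 0.075 without vehicle mutant 1. The 3 small structural RNAs tested were high in vehicle mutant 1, as Rn7sk was at 24.6 against 0.657 and 0.57 in the other vehicle mutants. Rnu1a1 and Rnu2-10 read 15.5 and 15.8 there, and treated mutant 2 was the other library with values this high.

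The neuronal lists differed by little, in both directions. Of 12 mature granule cell genes 10 were below treated wild types (median -0.075), while 50.7% of all genes tested were above. By library the list's median deviation was -0.067, 0.017 and -0.026 in vehicle mutants and -0.007 to 0.1 in treated wild types, which overlapped. Of these, Tdo2 and C1ql2 did not overlap between groups, beside 3.58% of all genes lower without overlap, and Dsp passed the unadjusted threshold. C1ql2, a synaptic organiser of mossy fibres, read 54.6, 50.9 and 57.6 against 60.8 to 69.9. Vehicle wild types read 49.5 to 54.5 and treated mutants 58.6 to 62.2, so every vehicle library lay below every treated one for C1ql2, as for Pnck. Glis3, a zinc finger factor of the same list, went the other way, at 3.97 to 4.58 against 2.86 to 3.89, and Rasgrp1, the most abundant member, differed by -0.028. In the list of 11 newborn granule neuron genes 9 were lower (median -0.14), Calb2 without overlap at 34.1 to 36.7 against 37.7 to 47.7, and Dcx, the microtubule protein of young neurons, at 5.08 to 5.89 against 5.77 to 7.42. Stmn1, the most abundant of these, differed by -0.13.

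Of 14 CA field genes 9 were higher (median 0.045), a direction that turned with no scaling (-0.066), with libraries scaled to the same sum (-0.0204) and with the highest transcript only (-0.029). The groups did not overlap for 3 of them, all higher, beside 2.67% of all genes. Wfs1, an endoplasmic reticulum protein that marks CA1, read 52.8, 53.1 and 62.6 against 40.5 to 50.3, and Amigo2, an adhesion protein of CA2 and CA3, 3.32 to 3.99 against 2.04 to 2.93. Cdh24 read 12 to 13.1 against 10.2 to 11.7, and Cacng5 and Fibcd1 passed the unadjusted threshold at 0.30 and -0.15. Pcp4, the most abundant, differed by -0.031. Of 12 stem and dividing cell genes 7 were higher (median 0.066), but the median was -0.029 with no scaling, 0.0091 scaled to the same sum, -0.0034 without treated wild type 1 and -0.0039 without vehicle mutant 2. They included Top2a, a topoisomerase of dividing cells, at 2.14 to 6.17 against 1.13 to 2.57 and Hopx at -0.032. Interneuron genes (11 of 16 higher, median 0.012) included Htr3a, a serotonin-gated channel, without overlap at -0.18, and Cck, the most abundant, at -0.09. Of 15 neuropeptide precursors 7 were higher (median -0.028), with Penk and Tac1 not overlapping in opposite directions, at 0.20 and -0.19. Thalamus and habenula markers were lower in 9 of 11 (median -0.072), Calb2 among them. Calb2 is thus shared by 3 of these lists.

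Receptor and activity genes showed no shared direction past the threshold. Of 20 glutamate receptors 9 were higher (median -0.021). Grin1, the obligatory NMDA receptor subunit, read 182, 180 and 185 against 390, 194, 219, 201 and 195, and Grik3 did not overlap either, at -0.16. Grm3 passed the unadjusted threshold at -0.16, and Gria1, the most abundant, differed by 0.15. Of 12 GABA-A receptor subunits 6 were higher (median -0.0088), with Gabra5, the most abundant, at 0.079. Of 15 immediate early genes, which neuronal activity induces, 12 were lower with a median of -0.09, none past the unadjusted threshold and none without overlap. By library the list's median deviation was -0.228, -0.298 and 0.102 in vehicle mutants and -0.093 to 0.009 in treated wild types. Vehicle mutant 3 thus lay above all treated wild types, and vehicle mutants 1 and 2 below them. Egr1, the most abundant, held 41.6 ± 8.57 against 41.1 ± 1.36 (SD, n = 3 and 5).

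Glial and vascular lists had medians between -0.074 and -0.022. Of 14 oligodendrocyte and myelin genes 10 were lower, with Cnp and Fa2h not overlapping, Myrf past the unadjusted threshold at -0.22, and Mbp, the most abundant, at 0.027. In the oligodendrocyte precursor list, with 7 of 11 lower, the lineage factor Sox10 read 19.9 to 21.4 against 23.2 to 25.1, while Olig1, the most abundant, ranged from 2.33 to 71.6 within vehicle mutants. Of 12 microglial genes 7 were lower, with Tmem119 not overlapping and Trem2 at -0.22. Of 12 astrocyte genes 7 were lower. Slc1a2, the glutamate transporter, and the calcium-binding S100b passed the unadjusted threshold in opposite directions, at -0.19 and 0.87, and Aldoc was listed at 0 in treated wild type 1 but at 440 to 497 in the other 7 libraries. Of 12 endothelial and mural genes 7 were lower, Cdh5 without overlap at -0.21 and Vtn, the most abundant, at 0.083.

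Interferon response genes were mostly higher (10 of 13, median 0.32), and this changed with 1 library: without vehicle mutant 1, 8 of 13 were higher and the median was 0.0038. Usp18, which restrains interferon signalling, did not overlap at 1.55 to 2.12 against 0.615 to 1.51. Ifi27 and Irf7 passed the unadjusted threshold at 0.37 and 0.32, and B2m, the most abundant, differed by 0.045. Ifit3 was listed at 0 in vehicle mutants 2 and 3 and at 2.8 in the first, against 2.44 to 3.9 in treated wild types. Its limma adjusted p was 0.328, and 0.00119 without vehicle mutant 1. No other fit with 1 library left out called it. Iigp1, an interferon-induced GTPase outside this list, was listed at 0, 0.0546 and 1.21 against 1.4 to 2.22. Its limma adjusted p was 0.213, and with 1 library left out it ranged from 0.00112, without vehicle mutant 3, to 0.541. Whether the values at 0 are low levels or transcripts that were not assembled was not tested. In the authors' deposited table Iigp1 differed by less, at 0.848 FPKM in vehicle mutants and 1.39 in treated wild types (log2 fold change -0.71, q = 0.00995).

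Genes of oxygen response (6 of 13 higher, median -0.0003) split, with Pgk1 and Adm higher and Ndrg1 lower without overlap, and Vegfa at 0.21. Glucocorticoid response genes were higher in 8 of 13 (median 0.043), Sgk1 and Sult1a1 past the unadjusted threshold at 0.28 and 0.49, with Mt1, the most abundant, at 0.13. Cholesterol synthesis genes were lower in 8 of 14 (median -0.036), Dhcr7, the last enzyme of the pathway, without overlap at 15.8 to 19.0 against 19.4 to 23.5 and Hmgcs1, the most abundant, at -0.032. Of 9 sex-linked genes 6 were higher (median 0.024), with Ddx3x, the most abundant, at 0.024. Xist was listed in 1 of 3 vehicle mutants and 2 of 5 treated wild types, so both groups held both sexes. That vehicle mutant was number 1, so results without vehicle mutant 1 also leave out the only vehicle mutant with Xist.

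Short housekeeping transcripts were mostly higher under the scaling used. Of 17 mitochondrial respiratory chain genes 15 were higher (median 0.13), and of 20 cytoplasmic ribosome genes 18 (median 0.10), beside 50.7% of all genes. With no scaling these medians were 0.016 and -0.013. Vehicle mutants 1 and 2 carried the difference: by library the mitochondrial list's median deviation was 0.138, 0.138 and -0.086 in vehicle mutants against -0.155 to 0.057 in treated wild types, and the ribosomal list's 0.064, 0.137 and -0.072 against -0.101 to 0.073. Cox6c, a cytochrome c oxidase subunit, read 452, 508 and 429 against 317 to 344 with no overlap, and Cox4i1, the most abundant, overlapped. Rpl10 differed by 0.14, as did Rpl13a, the most abundant ribosomal gene of the list. Transcript length moved with this: over 12826 protein-coding genes, the median difference went from 0.061 in the shortest of 5 length bins to -0.042 in the longest. Genes higher without overlap made up 4.2% of the shortest bin and 1.33% of the longest, and genes lower without overlap 1.36% and 6.08%. With each library's trend with length removed, the medians of the 2 lists became 0.064 and 0.04, and 73.5% of the 442 higher genes and 76.9% of the 593 lower genes still did not overlap. Vehicle mutants 1 and 2 and treated wild type 3 tilted towards short transcripts, and vehicle mutant 3 and the other treated wild types away from them. GC content moved with the result as well, genes lower without overlap making up 1.56% of the bin with the least GC and 6.63% of the bin with the most. The part of length and GC content in single genes' differences was not tested beyond these fits.

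**Figure D4:**
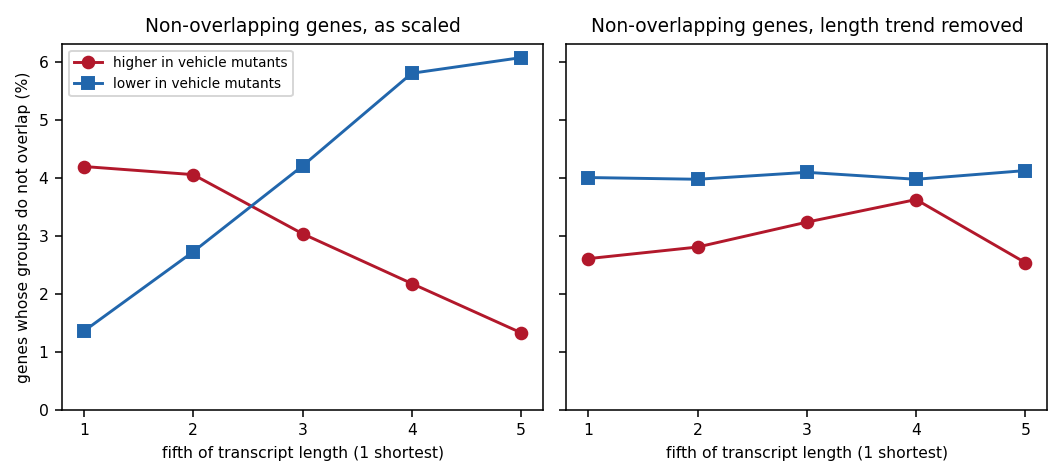
Share of protein-coding genes whose groups did not overlap (y axis, percent) in 5 bins of transcript length (x axis), as scaled (left) and with each library's length trend removed (right). The lower genes rise from 1.36% to 6.08% on the left and stay near 4% on the right.

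**Figure D5:**
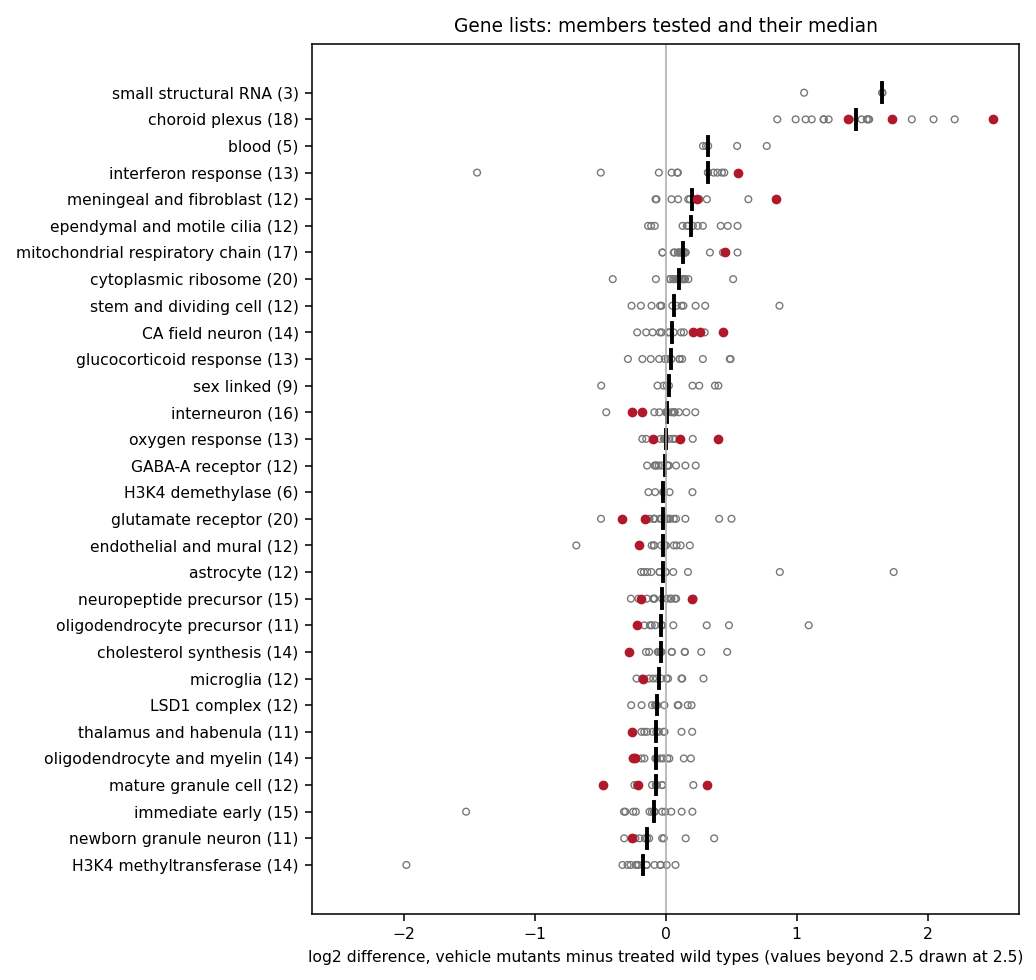
Log2 difference (x axis) of every tested member of each gene list (rows, number tested in brackets). Filled points are genes whose groups did not overlap and black bars are list medians. Choroid plexus and small structural RNA lie farthest to the right, at medians of 1.45 and 1.65.

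The authors' deposited table of the same pair gives 1 FPKM value per locus and group, with no library values. Of 32236 loci tested there, 140 were called higher in vehicle mutants (0.434%) and 57 lower (0.177%) at q of at most 0.05. The higher calls held 17 of the 18 choroid plexus genes. In the authors' deposited table Ttr stood at 1196 FPKM in vehicle mutants and 8.7 in treated wild types, Kcne2 at 5.5 and 0.129, Slc4a5 at 2.35 and 0.0464, and Clic6 at 6.68 and 0.182. Of all 197 calls, 162 shared the smallest q, so the 10 higher loci named were taken from these by fold change, among loci of 1 gene symbol with at least 1 FPKM in the higher group and a value above 0 in the other. The other loci so named were Prr32, Wdr86, F5 and the structural RNA genes Rnu2-10, Rnu1a1 and Rn7sk. Left out by that rule were, for example, Rny1, at 1647.54 FPKM in vehicle mutants and listed at 0 in treated wild types in the authors' deposited table, and a locus shared by Mir3473e and Rbks, with a log2 fold change of 7.14 there; both were picked after their values were seen. For the 10 named, vehicle mutant 1 was the highest of the 8 libraries.

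By library, 92 higher calls could be matched to 1 gene. Vehicle mutant 1 was the highest of the 8 libraries in 85 of them, and in 28 it alone exceeded all treated wild types. The median ratio of group means over those with wild type values above 0 was 2.16, and 1.26 without vehicle mutant 1. Of the 92, 17 did not overlap between groups in the table's direction, beside 2.67% of all genes tested. Among these were Strip2, at 12 to 16.5 against 8.84 to 11.4, Slc16a12, a creatine transporter, at 1.8 to 2.67 against 0.695 to 1.42, and Igfbp3, at 15.2 to 18.9 against 11.9 to 14.7. Lcn2, Dab2, Cpq, Pdgfd, Spint2, Cgnl1 and Pcp4l1 also did not overlap. For all 17, vehicle mutant 1 was the highest of the 8 libraries. Gm10800 was in the set too, but ranged from 0 to 434 within treated wild types.

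The lower calls rested less on vehicle mutant 1, though a value high in that library alone cannot give a lower call. Of 33 matched, 14 did not overlap, beside 3.58% of all genes tested. The table covers the same groups, so neither count is an independent check of its calls. Over those of the 33 with wild type values above 0, the median ratio of 0.74 was 0.73 without vehicle mutant 1. Ratios ran up to 1.54, and those above 1 went opposite to the table's direction. Cdhr1, a cadherin family gene, read 2.68, 2.58 and 2.66 in vehicle mutants against 3.64 to 5.19, and Ryr1, a calcium release channel, 5.37 to 7.21 against 7.55 to 11.8. Oxtr, the oxytocin receptor, read 3.34 to 3.97 against 4.26 to 5.27, Dlk1 1.61 to 2.0 against 2.38 to 3.36, Scnn1a, an epithelial sodium channel subunit, 2.63 to 3.05 against 3.4 to 4.4, and Gfra2, the neurturin receptor, 11.4 to 13.6 against 15.1 to 17.2. Asic4, Nectin1 and Plcz1 did not overlap either, with log2 differences of -0.40, -0.28 and -0.45. Igfbp6, Iigp1, Nrsn2, Pnck and Prag1, described above, complete the 14. Other loci that the same rule named among the lower calls of the authors' deposited table overlapped between groups in the libraries: Krt2 at 2.06 to 2.66 against 2.35 to 4.15, Efcab6, Krt9 and Lrch1 with wider overlap, and Dlx6os1 with a log2 difference of 0.20 in the opposite direction.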

How the data were processed

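Bulk RNA-seq of mouse hippocampus was analysed from files the authors deposited. Reads were aligned with TopHat2 2.1.0 to mm10, per the submitters' processing notes, and the order and other settings are not given in the sources used here. Per the file headers, transcripts were assembled library by library with CLASS 2.1.7, whose deposited abundance score per transcript behaves like an FPKM value, and replicates were not pooled. The second measure was the authors' table of 1 FPKM value per locus and group, a log2 fold change, and p-values and q-values deposited with it.

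Transcripts were assigned to GENCODE M21 genes by a shared intron, or for single exons by 50% overlap. Abundances were summed per gene and scaled by the median ratio over 13274 genes listed in all 14 libraries. Of 18723 genes listed, the 16575 listed in at least 3 libraries were tested with limma 3.58.1 (R 4.3.3) on log2(value + 0.9), all 14 libraries and 4 group means sharing the variance estimate, with Benjamini-Hochberg adjustment. On simulated data for this comparison, 16575 genes, 75% of changes of 1 and 89% of changes of 2 on the log2 scale were recovered, with 6 wrong calls. The simulated noise was normal and independent between genes, with no outlying library, missed transcripts, scaling shift or length trend. Recovery in the presence of these was not tested. Whether samples came from separate animals is given only by numbers in the titles; p-values measure the spread between these libraries. No read counts or intervals from counting were used. Strand was not stated, so overlapping and antisense genes may share values.

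Named genes are Kmt2d and Kdm1a, the 12 higher and 12 lower with the smallest p among protein-coding genes above 0 in all 8 libraries, the 10 higher and 10 lower loci of smallest q in the deposited table with at least 1 FPKM, its calls that did not overlap by library, and in each of 30 lists the members that did not overlap or had an unadjusted p under 0.05, with the most abundant; a few of these are not reported here. The comparison, members and lists were chosen with earlier results of these data known. Alternatives are listed in the closing section, and 5 of them were added after the data were seen. Figures were drawn with matplotlib 3.10.9.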

Additional observations from a re-analysis of the deposited data

Results flagged for a closer look

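Only the treated wild types, with 5 libraries, can be screened for a library far from the rest of its group (a gap to the nearest library over 0.71 of the range). Of 168 measures, 25 had such a library, where chance gives about 1 in 20. The lone library was treated wild type 1 in 12, 2 in 3, 3 in 6 and 4 in 4.

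Treated wild type 1 stood apart in its depth of 167600000 (next 56100000), its 48428 transcripts, its 16769 genes and the mean deviation of the astrocyte list, at -0.66. The last rested on Aldoc, the 1 member listed at 0 there (next 445), and the list's median deviation in that library was 0.065. In the same library Grin1 read 390 (next 219), Cgnl1 2.35, Slc4a5 0.0992 and Kcne2 0.111 were high, and Igfbp3 at 11.9, Vtn at 36.8 and Mbp at 1613.5 were low. Treated wild type 2 was high in unassigned abundance (8.0%), Prag1 (8.72) and Cdh24 (11.7). Treated wild type 3 was high in Trappc6a (1.84), Gm10800 (434, next 6.26), Cnp (240), C1ql2 (69.9) and Setd1b (8.39), and had Lcn2 listed at 0. Treated wild type 4 was high in Gm48551 (14.1, next 4.21) and low in Krt2 (2.35), Sostdc1 (0.867) and Pcp4 (167).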

How the results depend on the processing

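No paired analysis was possible because the titles give only animal or library numbers, which groups do not share, and replicate numbers follow accession order. With 3 and 5 libraries of uneven make-up, no call held across settings. Against 0 calls at an adjusted p of 0.05, limma made 1 with no filter on low values and 1 with no variance trend (Insl6 both times), 7 with the 8 libraries only, 0 to 8 with 1 library left out, and 14 without both vehicle mutant 1 and treated wild type 1. The smallest adjusted p of the last was 7.31e-07. The cause was not tested.

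Genes higher and lower at an unadjusted p of 0.05 (675 and 856) became 229 and 1728 with no scaling, 336 and 1596 scaled to the same sum, and 434 and 559 without both libraries. Genes without overlap (442 higher, 593 lower) became 144 and 1027, 216 and 930, and 1163 and 1280 under these, and 562 to 1403 and 734 to 1561 with 1 library left out, where fewer samples make overlap rarer. The trend fits were chosen after seeing the data and run first with each library centred on the mean of its trend. That version, for length, gave 413 higher at the unadjusted threshold, and 254 higher and 973 lower without overlap; with GC content it gave 411, 253 and 1012. The centring was then changed to keep each library's median, as the main scaling does, once those counts had been seen; this gave 436 and 656 without overlap for length, and 431 and 692 with GC content. Both centrings gave 0 calls. With multi-exon transcripts only, limma made 0 calls, and 424 genes were higher and 590 lower without overlap. The deposited table's 140 higher calls became 76 with at least 1 FPKM in both groups.

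List medians moved with no scaling to -0.15 (microglia), -0.13 (astrocyte), -0.18 (oligodendrocyte and myelin), -0.029 (stem and dividing cell), -0.18 (mature granule cell), -0.066 (CA field neuron), -0.14 (neuropeptide precursor), -0.17 (thalamus and habenula), -0.086 (oxygen response), -0.18 (LSD1 complex), -0.14 (cholesterol synthesis), 0.016 (mitochondrial respiratory chain) and -0.013 (cytoplasmic ribosome). Scaled to the same sum they were -0.089 (astrocyte), -0.14 (oligodendrocyte and myelin), 0.0091 (stem and dividing cell), -0.14 (mature granule cell), -0.0204 (CA field neuron), -0.092 (neuropeptide precursor), -0.13 (thalamus and habenula) and -0.13 (LSD1 complex). With the highest transcript, oligodendrocyte and myelin was -0.0024 and CA field neuron -0.029. With the length trend removed, neuropeptide precursor was -0.069 and LSD1 complex -0.023, and with GC content too -0.075 and -0.024. A pseudocount 10 times larger put meningeal and fibroblast at 0.076. With 1 library left out, LSD1 complex ranged from -0.077 to -0.025, neuropeptide precursor from -0.077 to -0.0093, oligodendrocyte and myelin from -0.15 to -0.053, stem and dividing cell from -0.0039 to 0.071, and thalamus and habenula from -0.17 to -0.057.

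Single genes changed sign, none of them called. With the highest transcript these were Nrxn2 0.16, Map2 0.43, Lrch1 0.0086, Cnp 0.011, Myrf 0.16, Mbp -0.0075, Cdh24 -0.16, Irf7 -0.085, Hdac2 -0.085, Gabra5 -0.052 and Hmgcs1 0.196. With multi-exon transcripts it was Slc1a2, 0.076. With no scaling these were Vtn -0.028, Mbp -0.086, B2m -0.068, Pgk1 -0.0045, Hdac2 -0.015, Gabra5 -0.033 and Ddx3x -0.088, and scaled to the same sum Mbp -0.039, B2m -0.022 and Ddx3x -0.042. With the length trend removed these were Rasgrp1 0.0080, Egr1 0.0201 and B2m -0.024, and with GC content too Egr1 0.046 and B2m -0.056. With 1 library left out, differences ranged from -0.071 to 2.21 for Aldoc, -0.069 to 0.14 for B2m, -0.41 to 0.22 for Cck, -0.066 to 0.082 for Ddx3x, -0.37 to 0.11 for Efcab6, -0.16 to 0.11 for Egr1, -0.14 to 0.37 for Foxj1, -0.091 to 0.0032 for Hmgcs1, -0.11 to 0.0061 for Hopx, -0.31 to 0.049 for Krt9, -0.056 to 0.057 for Mbp, -0.081 to 0.023 for Pcp4, -0.051 to 0.0081 for Rasgrp1 and -0.16 to 1.95 for Rnu2-10.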
